A study of Mus musculus with 9 samples.

Results

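Solute carriers are membrane proteins that move amino acids, sugars, metals, ions, nucleotides, vitamins and lipids across the surface membrane and the membranes of organelles. They are numbered by family, so that the first number of a symbol tells the family and the last the member. The 30 genes described here are all columns of the deposited table whose symbol begins with Slc and a number, out of 2402 genes in the table. GENCODE M21, an annotation of the mm10 assembly that the submitters' processing notes name, lists 371 protein-coding genes with such symbols, and all 30 were matched to it. The others were not analysed here. One of the 30, Slc9a3r2, carries the prefix of a sodium-proton exchanger but encodes NHERF2, a scaffold protein that binds such exchangers and is not itself a carrier.

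The labels describe 9 messenger RNA samples from sorted bone marrow cells of male mice with a C57BL/6 genotype, in which a Flt3-driven Cre had been crossed to the mTmG reporter. In these FlkSwitch mice every cell starts with the red Tomato protein (Tom), and switches for good to GFP, with its descendants, once Cre is made from the Flt3 promoter. Young mice, aged 3 months, gave 3 samples of GFP+ megakaryocyte progenitors (MkP), the marrow cells that become platelet-forming megakaryocytes. Old mice, aged 18 to 20 months, gave 2 samples of GFP+ MkP, 2 of Tom+ MkP and 2 of Tom+ haematopoietic stem cells (HSC). MkP were sorted as lineage-negative, cKit+, Sca1-, CD150+ and CD41+ cells, and HSC as lineage-negative, cKit+, Sca1+, CD150+ and Flk2- cells. The rows of the table carry no sample names, so that no row was assigned to a group and no comparison between age, reporter colour or cell type was made. Numbers 1 to 9 name the libraries by row and imply no order, and the labels do not say whether they came from separate animals or pools.

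The 9 libraries held between 1790670 and 4373460 reads on the genes of the table, and 1 read was worth between 0.724 and 1.96 normalized counts. Libraries 3 and 4 stood apart from the other 7. The 7 measured of 12 megakaryocyte markers were all at their lowest values there, and their summed level was 3061 and 8764 normalized counts against 72965 to 135706 in the others. None of these 7 markers was at 0 in any library. The 6 measured of 10 stem cell markers were all highest there, with sums of 14232 and 12342 against 92.4 to 1226, and none was at 0. Of all genes of the table that passed the filter below, 40.8% were lowest and 51.0% highest in these 2 libraries. How far the cell makeup of a library bears on any carrier below was not tested. In such bulk samples, fewer cells of a type and less RNA per cell cannot be told apart.

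Megakaryocytes and platelets depend on several of these carriers. Platelet dense granules are filled with serotonin by the vesicular monoamine transporter Slc18a2 (VMAT2), and their formation in mice requires Slc35d3, a relative of the nucleotide sugar transporters. Glucose enters through Slc2a1 (GLUT1) and Slc2a3 (GLUT3), and glutamine through exchangers such as Slc1a5 (ASCT2). Slc14a1 is the urea transporter UT-B, which carries the Kidd blood group antigens on red cells.

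Of the 30 genes, 29 reached 10 normalized counts in 2 or more libraries, and Slc22a23, an orphan member of the organic ion family with at most 7.08, did not. Of these 29, 21 had a highest library at least 4-fold above the lowest, on normalized counts with 1 added. Among all 2341 genes that passed the filter 66.4% did, and the members' share of 72.4% was near this background. When libraries were scaled to the table total, 27 of 29 carriers did, against 68.0% of all genes, and under median-of-ratios scaling 19 of 29, against 70.5%. The median range was 8.21-fold for the 29 genes and 6.16-fold for all genes. All genes, here and below, are those of the deposited table, and how they were chosen is not given in the sources used here. When libraries 3 and 4 were left out, a choice made after the values were seen, 8 of 27 carriers had a highest library 4-fold or more above the lowest, against 20.8% of 2133 genes. Both libraries lay above all 7 others for 16 of the 29 genes, against 51.0% of all genes, and below all 7 for 9, against 40.8%. The remaining 4 were Slc31a1, Slc37a2, Slc38a9 and Slc43a2. No carrier went from above to below, or from below to above, under the 2 other scalings tried, table total and median of ratios. In those, libraries 3 and 4 were shifted against the median library by 0.65 and 0.50 and by -0.60 and -0.33 on the log2 scale. Libraries 3 and 4 then lay above all others for 17 and 13 of the 29 carriers, against 55.6% and 38.6% of all genes, and below for 7 and 9, against 23.9% and 41.6%. Ranges of single genes that moved by over 1.5 times under these scalings are given below beside the value under the deposited scaling. The ranges under these scalings have 1 added to each normalized count. Single-gene ratios given with an interval or with libraries left out have none added. Reads of all 29 differed between libraries beyond counting error (chi-square test, Benjamini-Hochberg adjustment over 2341 genes), as did those of 98.7% of all genes. That test compares libraries, not conditions.

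**Figure D1:**
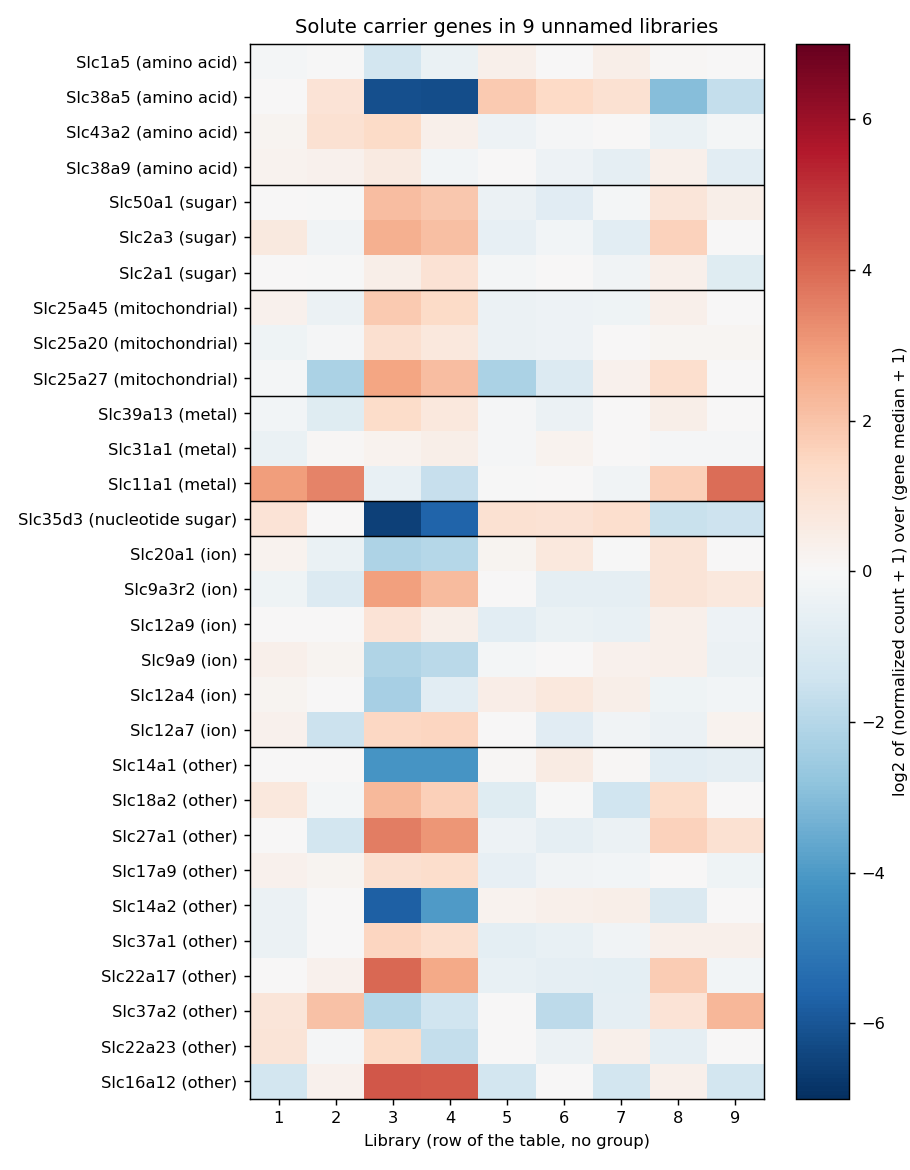
Heat map of the 30 genes (rows, by role and then by median level per kilobase) in libraries 1 to 9 (columns), as the log2 of the normalized count plus 1 over the gene's median plus 1. Slc38a5, Slc35d3, Slc14a1 and Slc14a2 are darkest blue in libraries 3 and 4, where Slc16a12, Slc22a17 and Slc27a1 are darkest red.

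**Figure D2:**
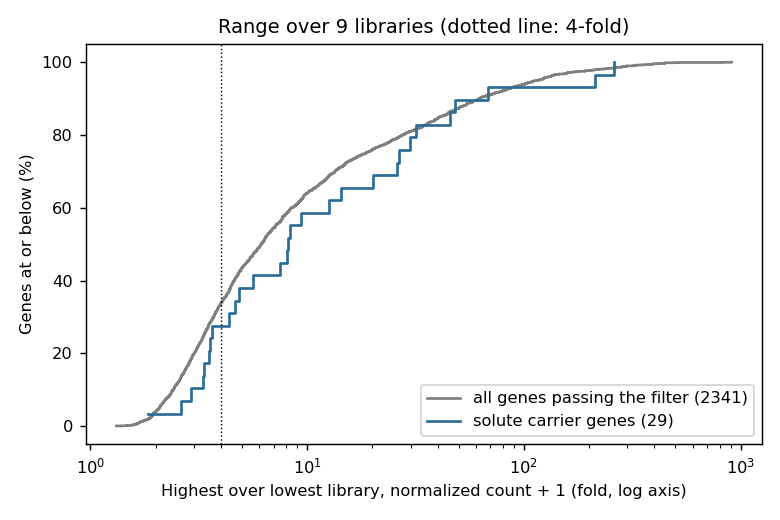
Cumulative share of genes (vertical axis, percent) at or below each range over the 9 libraries (horizontal axis, fold, log scale), for 29 solute carrier genes and all 2341 genes that passed the filter. The dotted line marks 4-fold, which 21 of the 29 carriers reached.

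Levels of different genes were set side by side only per kilobase of merged exons. Slc14a1 had the highest median level, 5016 normalized counts per kilobase, followed by Slc1a5 with 1832, Slc50a1 with 749 and Slc35d3 with 372. The levels overlapped over the libraries, since Slc14a1 went down to 286 per kilobase in one library and Slc50a1 up to 3287 in another. Slc25a45, Slc39a13, Slc25a20, Slc38a5, Slc2a3 and Slc2a1 followed with medians from 111 down to 37.0 per kilobase, and the other 20 genes had 27.9 or less. The same 10 genes led when the longest transcript was used as the length.

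Among the carriers of the table, the urea transporter Slc14a1 supplied between 44.7% and 70.1% of the reads in the 7 other libraries. In libraries 3 and 4 it supplied 6.31% and 6.68%. Carriers outside the table do not enter these shares, so they are not shares of all carrier RNA. The Wilson 95% intervals were 5.93% to 6.70% for library 3 and 69.6% to 70.6% for library 6, and like all intervals here they cover counting error only. In normalized counts it had 20040.5, 20738, 1143, 1151, 21422, 30251, 21125, 11843 and 12744 in libraries 1 to 9. Libraries 3 and 4 were far below the rest, and libraries 8 and 9 were the next lowest. The highest value was 26.5 times the lowest (95% exact counting interval 24.8 to 28.3), and 2.55 times without libraries 3 and 4. The range depended on the scaling by more than this interval covers, at 15.02-fold under the table total and 40.6-fold under median of ratios. Of 8 erythroid markers 3 were measured, none at 0. The water channel Aqp1 had 279.6 and 294 normalized counts in libraries 3 and 4 and 5422 to 8514 in the others, and Ermap had 2.36 and 5.72 against 10.5 to 352. Rhd had 4.72 and 9.15 in libraries 3 and 4 but was lowest in library 8, at 3.15. Their summed level, nearly all Aqp1, was 287 and 309 in libraries 3 and 4 and 5752 to 8528 in the others, and their part in the Slc14a1 values was not tested.

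Its neighbour Slc14a2, the UT-A urea transporter known from the kidney, lies 4.03 kb away on the same strand of the same chromosome. It had 37.7, 51.0, 0, 2.29, 59.8, 64.3, 67.6, 25.2 and 52.2 normalized counts in libraries 1 to 9, so that the libraries low in Slc14a1 were low in it too. Its highest value was at least 19.1-fold above the value of 3 reads in library 3, the library at 0. Without library 3, the ratio to the 2 reads of library 4 was 29.5 (interval 7.70 to 251), and without libraries 3 and 4 it was 2.68. Per read of Slc14a1 there were 0.00188 to 0.00409 reads of Slc14a2 in the 8 libraries where it was seen. In library 3 the 969 reads of Slc14a1 came with none, for which the exact interval reaches up to 0.00381. Slc14a2 also overlaps the protein-coding gene Gm6133 on the opposite strand. Whether part of the Slc14a2 reads stem from transcripts of Slc14a1 or Gm6133 was not tested.

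**Figure D3:**
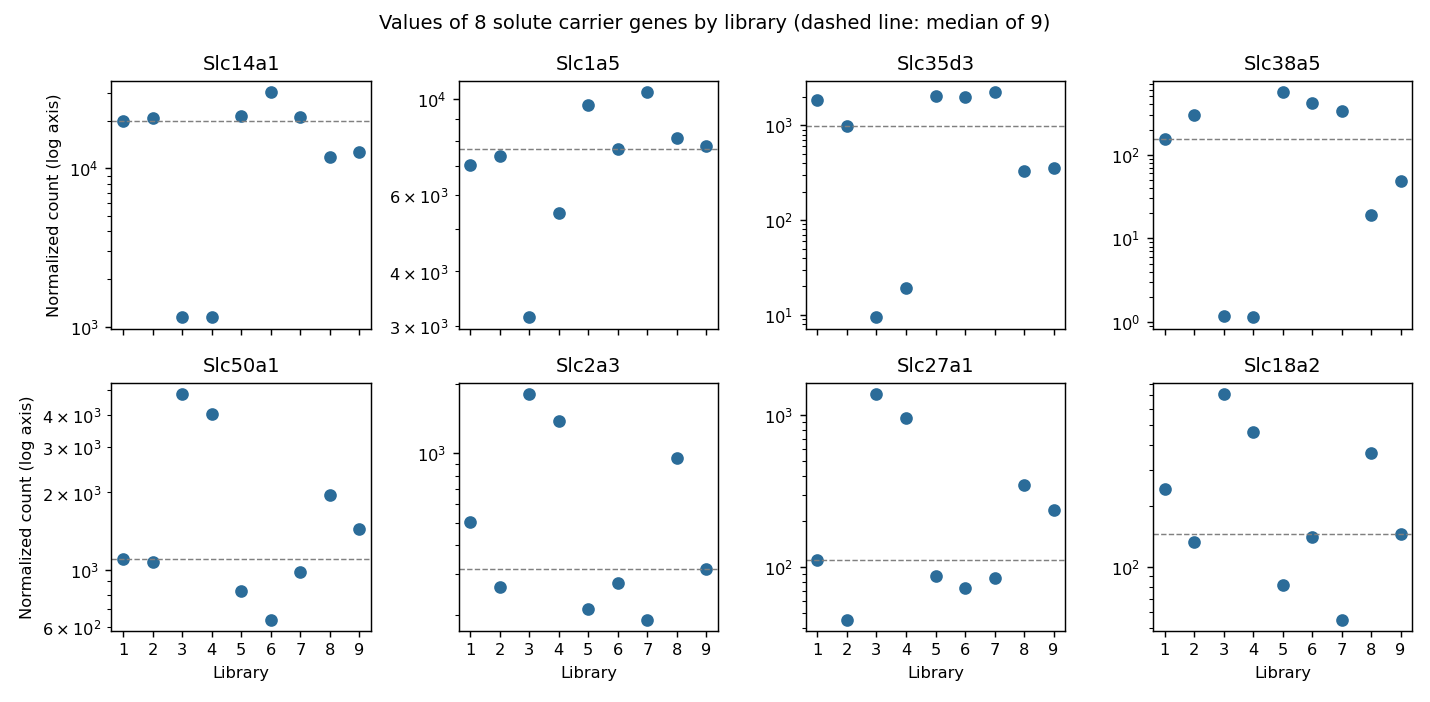
Normalized counts (vertical axes, log scale) of 8 carriers in libraries 1 to 9 (horizontal axes). Each point is 1 library and the dashed line is the median of the 9. Slc14a1, Slc1a5, Slc35d3 and Slc38a5 are lowest in libraries 3 and 4, and Slc50a1, Slc2a3, Slc27a1 and Slc18a2 are highest there.

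Slc35d3 and Slc18a2, the 2 genes named above for platelet dense granules, went in opposite directions over the libraries. Slc35d3 had 1872, 979, 9.44, 19.5, 2037, 1985, 2231, 329 and 356 normalized counts in libraries 1 to 9. Its values were lowest in libraries 3 and 4, with 8 and 17 reads, intermediate in libraries 8 and 9, and higher in the other 5. The highest was 236 times the lowest (interval 120 to 549), 115 times without library 3, and 6.78 times without libraries 3 and 4. With 1 added, the range of 214-fold was 117-fold under the table total and 321-fold under median of ratios. Slc18a2 had 241, 133, 707, 461, 81.5, 141, 55.3, 363 and 146 normalized counts. It was highest in libraries 3 and 4, followed by library 8, and lowest in library 7, where Slc35d3 was at its highest. Its range was 12.8-fold (interval 9.13 to 18.4), 8.34-fold without library 3, and 6.56-fold without libraries 3 and 4. Under the table total it was 28.5-fold and under median of ratios 7.69-fold. A ratio of reads of 2 genes within 1 library does not depend on how libraries were scaled. Slc35d3 had 0.0134 reads per read of Slc18a2 in library 3 (interval 0.00574 to 0.0265) and 40.4 in library 7 (interval 29.02 to 57.9). It had 0.908 in library 8, 2.45 in library 9 and 7.34 to 25 in libraries 1, 2, 5 and 6. A further vesicle carrier, Slc17a9 (VNUT, which loads nucleotides into secretory vesicles), ranged from 31.5 to 114 around a median of 48.2. Like those of Slc18a2, its 2 highest values were in libraries 3 and 4, at 105 and 114. The other 7 lay between 31.5 and 59.1. For Slc17a9 the range of 3.55-fold was 6.35-fold under the table total.

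**Figure D4:**
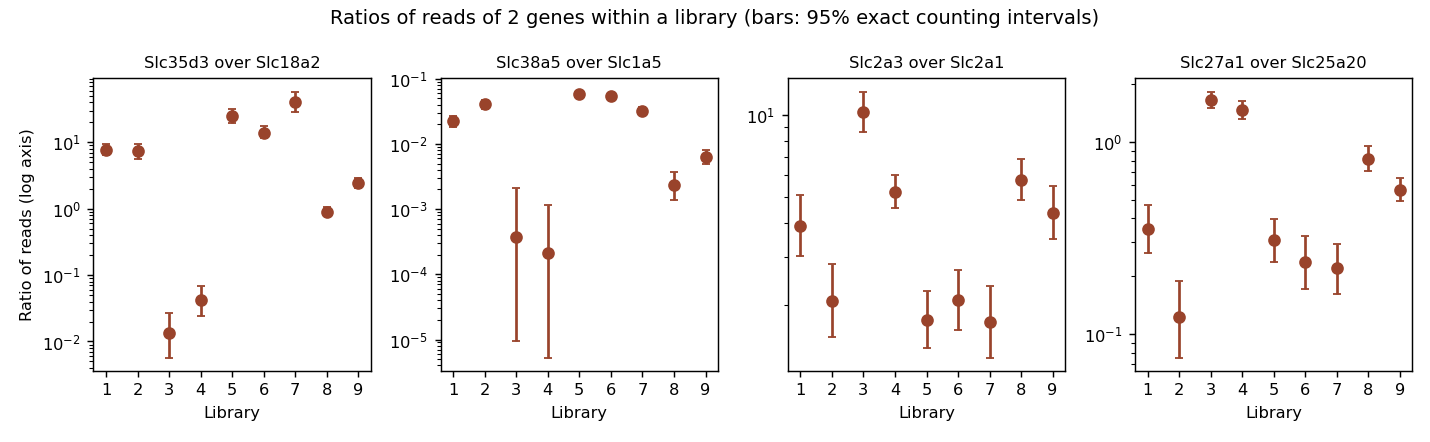
Ratios of the reads of 2 genes within each library (vertical axes, log scale) in libraries 1 to 9 (horizontal axes), for 4 pairs of carriers, with bars for the 95% exact counting interval. Slc35d3 over Slc18a2 and Slc38a5 over Slc1a5 are lowest in libraries 3 and 4, and the other 2 ratios are highest in library 3.

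Promoter windows from RefSeq (GRCm38.p6, the assembly of mm10), 250 bases before to 50 after a start site, were available for 24 of the 30 genes in 30 windows. Shown are those of 4 genes with wide ranges in both directions. Slc35d3 and Slc38a5 were lowest and Slc22a17 and Slc18a2 highest in libraries 3 and 4. Slc16a12, Slc27a1 and Slc9a3r2 were also highest there with wider ranges than Slc18a2, and their windows are not shown. Slc35d3 is at chr10:19851410-19851709 on the minus strand, Slc38a5 at chrX:8271131-8271430 on the plus strand, Slc22a17 at chr14:54913083-54913382 on the minus strand, and Slc18a2 at chr19:59260628-59260927 on the plus strand. Each is written 5′ to 3′, with capitals where a motif was matched. A match on the other strand appears as the reverse complement of the motif.
Slc35d3: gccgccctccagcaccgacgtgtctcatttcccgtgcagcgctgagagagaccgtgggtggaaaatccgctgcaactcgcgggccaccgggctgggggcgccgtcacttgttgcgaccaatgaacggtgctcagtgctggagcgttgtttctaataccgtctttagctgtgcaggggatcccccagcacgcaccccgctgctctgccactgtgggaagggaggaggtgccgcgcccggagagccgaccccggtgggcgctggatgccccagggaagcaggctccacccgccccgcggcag
Slc38a5: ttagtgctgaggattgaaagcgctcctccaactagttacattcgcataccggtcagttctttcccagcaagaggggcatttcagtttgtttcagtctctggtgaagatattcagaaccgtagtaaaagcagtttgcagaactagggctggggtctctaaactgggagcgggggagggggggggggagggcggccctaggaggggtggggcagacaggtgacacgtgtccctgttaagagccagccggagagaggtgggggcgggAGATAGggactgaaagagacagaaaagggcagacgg
Slc22a17: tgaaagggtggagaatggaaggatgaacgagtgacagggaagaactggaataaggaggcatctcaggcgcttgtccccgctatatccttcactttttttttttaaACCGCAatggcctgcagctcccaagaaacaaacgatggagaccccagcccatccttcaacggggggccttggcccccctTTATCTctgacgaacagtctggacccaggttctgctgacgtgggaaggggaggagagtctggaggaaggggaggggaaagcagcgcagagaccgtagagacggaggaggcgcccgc
Slc18a2: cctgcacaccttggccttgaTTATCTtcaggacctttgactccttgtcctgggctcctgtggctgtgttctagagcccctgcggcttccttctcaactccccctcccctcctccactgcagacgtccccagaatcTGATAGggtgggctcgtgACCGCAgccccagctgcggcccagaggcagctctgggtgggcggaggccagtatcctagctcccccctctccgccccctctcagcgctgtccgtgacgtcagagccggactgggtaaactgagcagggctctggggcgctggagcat
The motifs searched were those of GATA factors (AGATAA or AGATAG or TGATAA or TGATAG), RUNX factors (TGTGGT or TGCGGT) and ETS factors (CCGGAA). These families include known regulators of megakaryocyte genes, and the motifs do not overlap each other in the 4 windows. A GATA motif was present in 29.8% of all 32851 windows and in 7 of the 30 carrier windows, a RUNX motif in 22.4% and in 10, and an ETS motif in 14.9% and in 8. The median share of G and C bases was 62.8% in the carrier windows and 52.7% in all windows. Its part in these motif shares was not tested. Among the 4 windows, Slc38a5 held 1 GATA match, Slc22a17 held 1 GATA and 1 RUNX match, Slc18a2 held 2 GATA matches and 1 RUNX match, and Slc35d3 held none of these letters. A match of letters is a description of the window and does not show binding.

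The amino acid carriers differed from each other in their spread. Slc1a5, a sodium-dependent exchanger of glutamine and other neutral amino acids (chromosome 7, 16781340 to 16798274, protein-coding), had 7036, 7389.5, 3136, 5468, 9644, 7645, 10344, 8118 and 7764 normalized counts in libraries 1 to 9. It was lowest in library 3 and then library 4, and the other 7 lay within 1.47-fold of each other. The range was 3.30-fold (interval 3.15 to 3.45) and 1.89-fold without library 3. When libraries were scaled to the table total, library 4 no longer lay below the others and the range, with 1 added, was 1.90-fold, against 5.38-fold under median-of-ratios scaling. Slc38a5 (SNAT5), a sodium-coupled carrier of glutamine, histidine and other neutral amino acids (chromosome X, 8271133 to 8280179), had 156, 298, 1.18, 1.14, 557, 415, 330.05, 18.9 and 48.5 normalized counts. Libraries 3 and 4 had 1 read each, and libraries 8 and 9 were next with 18 and 67 reads. The ratio of the highest to the lowest was 487 with an interval from 87.1 to 19281, and 29.5 without libraries 3 and 4. With 1 added, the range of 261-fold was 157-fold under the table total. Within a library there were 0.0578 reads of Slc38a5 per read of Slc1a5 in library 5 (interval 0.0528 to 0.0632) and 0.00232 in library 8 (interval 0.00138 to 0.00368). The lysosomal arginine sensor Slc38a9 ranged 2.70-fold, from 25.4 to 68.4 (interval 1.74 to 4.23). Slc43a2 (LAT4), a carrier of branched-chain amino acids, ranged 3.62-fold, from 24.1 to 87.3 (interval 2.24 to 6.06). Both were highest in library 3, but library 4 lay within the values of the other libraries for each. Under the table total the ranges were 5.41-fold for Slc38a9 and 6.33-fold for Slc43a2.

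Genes that act beside these carriers were taken as whole lists. Of 14 genes of the amino acid response, which cells switch on when amino acids run short, 6 were measured, and each of the 6 ranged 4-fold or more, as did 66.4% of all genes. The serine and folate enzymes Psat1, Shmt2 and Mthfd2 and the asparagine synthetase Asns were lowest in libraries 3 and 4. Mthfd2 had 36.6 and 120 there and at least 341 in the others. Trib3, a pseudokinase of the same response, and the stress regulator Nupr1 were highest there. Among the 5 measured of 14 carrier partners, Emb (embigin), which escorts monocarboxylate carriers to the membrane, had 1231.5 and 1538 in libraries 3 and 4 and 36.1 to 108 in the others. Slco3a1, an organic anion carrier of another nomenclature, was also highest there. Mpc1, a subunit of the mitochondrial pyruvate carrier, and Lamtor2 and Lamtor4, subunits of the lysosomal complex that anchors mTORC1 signalling, were lowest there. Mpc1 had 388 and 590 against 806 to 1776. The shares of all genes to set beside both lists are 40.8% lowest and 51.0% highest in libraries 3 and 4.

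All 3 sugar carriers had their 2 highest values in libraries 3 and 4 under the deposited scaling, as did 51.0% of all genes. Slc50a1, the mammalian SWEET family sugar transporter (chromosome 3, 89268246 to 89270570), had 1097.5, 1072, 4818, 4063, 823, 639, 981, 1955 and 1439 normalized counts. Libraries 3 and 4 were higher than any other library, and library 8 was next. The range was 7.54-fold (interval 6.84 to 8.32) and 3.06-fold without libraries 3 and 4. It was 14.6-fold under the table total and 4.996-fold under median of ratios. Slc2a3, a glucose transporter of high affinity that platelets carry, had 505, 263, 1798, 1384, 211, 273, 190.4, 949.8 and 315 normalized counts. Library 8 was again next to libraries 3 and 4. The range of 9.44-fold (interval 7.86 to 11.4) was 4.99-fold without those 2 libraries. For Slc2a3 the table total gave 21.5-fold and median of ratios 5.75-fold. The basal glucose transporter Slc2a1 had 129.6, 128, 176, 265, 120, 131, 111, 165 and 72.4 normalized counts, a 3.66-fold range (interval 2.89 to 4.68). Leaving out library 4 gave 2.43-fold and leaving out library 9 gave 2.40-fold. Under median-of-ratios scaling library 3 no longer lay above the other 7. Slc2a3 had 10.2 reads per read of Slc2a1 in library 3 (interval 8.64 to 12.2), 5.22 in library 4, 5.77 in library 8, 4.35 in library 9 and 3.90 in library 1. The ratio in libraries 2, 5, 6 and 7 lay between 1.72 and 2.07. Of 15 glycolysis genes 2 were measured. Ldhb, a lactate dehydrogenase subunit, had 8434 and 7543 in libraries 3 and 4 and 109 to 1625 in the others, whereas Pgk1, phosphoglycerate kinase, was at 2385 and 3430 there and between 3286 and 8910 elsewhere.

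The 3 mitochondrial carriers of family 25 were also highest in libraries 3 and 4, as were 51.0% of all genes. Slc25a20, which brings acylcarnitines into mitochondria for fatty acid oxidation (chromosome 9, 108662088 to 108684641), had 315, 369, 826, 651, 284, 305, 384, 425 and 423 normalized counts, a 2.91-fold range (interval 2.52 to 3.37). The table total gave a range of 5.75-fold and median of ratios 1.87-fold. The 7 other libraries were within 1.497-fold of each other. Slc25a45, whose substrate is less well known, had a median of 306 and went from 228 to 1112, a spread of 4.89-fold, or 1.73-fold without libraries 3 and 4 and 10.4-fold under the table total. Slc25a27 (UCP4) was rare, with 30.7 and 19.5 normalized counts in libraries 3 and 4, at most 9.44 in the others and 0 in libraries 2 and 5. The highest value was at least 9.41-fold above the value of 3 reads in library 5. This bound fell to 5.97-fold when library 3 was left out and to 5.21-fold when library 5 was. With 1 added, its range of 31.7-fold was 17.1-fold under median of ratios. Slc27a1 (FATP1), which takes up long-chain fatty acids (chromosome 8, 71568882 to 71587302), had 112, 45.1, 1369.5, 957.6, 88.0, 72.7, 84.4, 348 and 238 normalized counts. It was highest in libraries 3 and 4, followed by 8 and 9, and lowest in library 2. The range was 30.3-fold (interval 20.1 to 48.1), 18.8-fold without library 2 and 7.71-fold without libraries 3 and 4. Scaling to the table total gave 51.2-fold and median of ratios 19.7-fold. Per read of Slc25a20 there were 1.66 reads of Slc27a1 in library 3 (interval 1.51 to 1.82) and 0.122 in library 2 (interval 0.0757 to 0.189), so that the uptake gene varied more than the mitochondrial one.

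Metal carriers followed no common pattern. The zinc carrier Slc39a13 (ZIP13) had a median of 424 and went from 232 to 1018, a 4.40-fold spread (interval 3.62 to 5.37). Scaled to the table total, its range was 7.59-fold. It was highest in libraries 3 and 4, but under median-of-ratios scaling libraries 3 and 4 no longer both lay above all others. Slc31a1 (CTR1), which imports copper, had the narrowest range of the 29 carriers, 1.85-fold (interval 1.32 to 2.63), between 80.4 and 149. Its reads differed beyond counting error (adjusted p = 0.00687, chi-square test with Benjamini-Hochberg adjustment), but not without library 1 (0.0600) or library 4 (0.0884). When scaled to the table total, libraries 3 and 4 lay above the others. Slc39a13 overlaps Psmc3 and Slc31a1 overlaps Cdc26, both on the opposite strand, and whether reads were counted by strand is not given in the sources used here.

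Slc11a1 (NRAMP1), a metal carrier of phagocyte vesicles (chromosome 1, 74375195 to 74386062), had 49.2, 72.6, 3.54, 1.14, 5.43, 5.59, 4.61, 19.9 and 96.3 normalized counts. Libraries 9, 2 and 1 were highest and library 8 next, while libraries 3 to 7 had 1 to 5 reads each. The ratio of the highest to the lowest was 84.2 with an interval from 14.9 to 3350, or 27.2 without library 4 (interval 9.12 to 134). Scaled to the table total, library 3 lay above some of the others. Slc37a2, a sugar phosphate exchanger of the endoplasmic reticulum that is abundant in macrophages, had 14.8, 35.3, 1.18, 2.29, 7.61, 1.40, 4.61, 15.7 and 42.7 normalized counts. Its 4 highest libraries were again 9, 2, 8 and 1, and its ratio of highest to lowest was 36.2 with an interval from 6.25 to 1455, since the lowest library had 1 read. Of the 7 granulocyte and monocyte markers, 4 were measured. Csf1r, the receptor of macrophage colony-stimulating factor, had 64.0, 64.8, 0, 1.14, 8.69, 4.20, 3.07, 15.7 and 82.6 in libraries 1 to 9, and Cebpa was at 0 in both libraries 3 and 4, against 1.64 to 41.2 in the others. Prtn3, a granule protease, and Csf3r went the other way and were highest in libraries 3 and 4, with 12248 and 11466 for Prtn3. The summed level of the 4 markers, carried by Prtn3, was 12916 and 12329 in libraries 3 and 4 and 366 to 2142 in the others. Fcer1a of mast cells and basophils, the single measured gene of its list of 4, was at 0 in 3 libraries and highest in library 1, with 103. The part of such cells in the values of Slc11a1 and Slc37a2 was not tested.

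Of the 6 genes with an ion carrier symbol, 3 were highest and 3 lowest in libraries 3 and 4, as were 51.0% and 40.8% of all genes. The scaffold gene Slc9a3r2 had 41.01, 25.5, 379, 240.3, 51.1, 32.2, 32.2, 95.4 and 86.2 normalized counts, a 14.8-fold range (interval 8.56 to 28.2) that was 9.42-fold without library 3 and 3.74-fold without libraries 3 and 4. For Slc9a3r2 the table total gave 25.7-fold and median of ratios 9.49-fold. Slc12a9 ranged 3.403-fold, from 40.2 to 137 (2.25-fold without library 3). Its range was 6.54-fold under the table total and 2.16-fold under median of ratios, and in the latter libraries 3 and 4 did not both lie above the others. Slc12a7, the potassium-chloride cotransporter KCC4, had 37.8 and 38.9 in libraries 3 and 4 and 3.93 to 16.4 in the others. The ratio of highest to lowest was 9.91 with an interval from 2.54 to 85.1, and 5.57 without library 2, which had 2 reads. With 1 added, its range of 8.09-fold was 12.7-fold under the table total. Slc12a4, the related KCC1, went the other way, with 2.36 and 9.15 in libraries 3 and 4 and 12.6 to 26.6 in the others. Its ratio of 11.3 (interval 2.72 to 99.7) rested on the 2 reads of library 3 and was 2.90 without it. With 1 added, 8.21-fold became 4.62-fold under the table total. For Slc12a4 the chi-square test gave an adjusted p of 0.00388, but 0.135 without library 3 and 0.432 under scaling to the table total. The phosphate carrier Slc20a1 (PiT1) had 23.6 and 26.3 in libraries 3 and 4 and 78.5 to 204 in the others, an 8.67-fold range (interval 5.46 to 14.5). Slc9a9 (NHE9), an exchanger of endosomes, had 4.72 and 5.72 there and 17.4 to 31.2 in the others, an interval of the ratio from 2.20 to 26.7 around 6.61.

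The remaining carriers were high in libraries 3 and 4. Slc22a17, a receptor for the iron-binding protein lipocalin-2 (chromosome 14, 54906304 to 54913132), had 37.7, 47.1, 622, 245, 26.1, 23.8, 23.0, 130 and 33.3 normalized counts. Library 3 was highest, then 4 and then 8. The range was 27.0-fold (interval 16.2 to 48.6), 10.6-fold without library 3 and 5.64-fold without libraries 3 and 4. It was 57.7-fold under the table total and 16.2-fold under median of ratios. Slc37a1, a glucose-6-phosphate exchanger related to Slc37a2, ranged 4.69-fold, from 67.4 to 316 (interval 3.55 to 6.29), and 2.10-fold without libraries 3 and 4. For Slc37a1 the table total gave 9.12-fold and median of ratios 2.99-fold. Slc16a12, a monocarboxylate family carrier of creatine, had 40 reads in each of libraries 3 and 4 and at most 2 in any other. It was at 0 in 4 libraries, and its highest value of 47.2 was at least 21.7-fold above the value of 3 reads in library 9. Without library 9 this bound was 14.5-fold. With 1 added, its range of 48.2-fold was 30.1-fold under median of ratios. The 11 listed genes of iron and heme handling were not analysed here.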

How the data were processed

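Messenger RNA of 9 sorted samples was sequenced. The authors deposited normalized counts (a per-library scaled signal) as 1 table with genes in columns and 9 unnamed rows. The submitters' processing notes name mm10, Bowtie2, STAR and DESeq, without roles or versions. How reads were counted, by which annotation and strand, how libraries were scaled and how genes were chosen is not given in the sources used here. Per the labels' protocols, Trizol was used for the RNA and a NEBNext Ultra kit, described there as using Tn5, for the libraries.

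Since no row was tied to a sample, the 3 planned comparisons (old Tom+ with old GFP+ MkP, old with young GFP+ MkP, old Tom+ MkP with HSC) were not run, and no mean, SD or test over groups is given. All deposited values (100%) were whole multiples of 1 step per row within a tolerance of 0.1 reads, so reads behind each value could be counted. The limit at a count of 0 is 3 reads, equal to 2.17 to 5.89 normalized counts by library. Ratios between libraries carry exact conditional binomial intervals at 95%. These cover counting error only (reads carry no molecular identifiers) and make no allowance for having picked the extreme libraries.

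The filter kept genes that reached 10 normalized counts in 2 or more libraries. The range was taken on log2 values with a pseudocount of 1, and reads were tested against 1 rate by chi-square, adjusted at 0.05 over the whole table. Alternatives were 2 scalings, pseudocounts of 0.5 and 5, low values raised to 3 reads, 2 filters, folds of 2 and 8, and leaving out each library. The steps were run on simulated reads with counting error only, where most genes were unchanged and a changed gene differed in a single library. That setting is unlike these data, where the chi-square test called 98.7% of all genes. It checks the computation and not any result on the carriers. Members, gene lists and role groups were chosen with earlier results of these data known. The naming rule took, per role group, the 3 highest levels per kilobase and the 3 widest ranges with a highest value of at least 50, all members of groups under 5, Slc2a1, and the 3 narrowest with a median of at least 100. The other members were added, so that all 30 are given. The 6 pairs for ratios within a library and the use of libraries 3 and 4 were chosen after the values were seen. So were the 4 promoter windows shown and the count of library 8 as the next library. Of 5 lymphoid markers 3 were measured and differed in direction. Nkg7 had 185 and 667 normalized counts in libraries 3 and 4 against 2153 to 27162 in the others, Lck had 44.8 and 43.5 against 6.99 to 26.8, and Vpreb1 had 3.26 to 12.3 in all. Their sum, mostly Nkg7, was 238 and 716 against 2174 to 27189. Of 5 endothelial and stromal markers Emcn was measured, at 322 and 213 against 0 to 19.6. Of 5 sort genes, Kit, Ly6a and Itga2b were measured. Python 3.11.15, numpy 2.4.6, pandas 2.3.3, scipy 1.17.1 and matplotlib 3.10.9 were used.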

Additional observations from a re-analysis of the deposited data

How the results depend on the processing

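No paired analysis was possible because the rows of the table carry neither group nor replicate number. The count of carriers with a range of at least 4-fold, 21 of 29, was 27 under scaling to the table total (68.0% of all genes) and 19 under median-of-ratios scaling (70.5% of all genes), so that its closeness to the background holds for the deposited and median-of-ratios scalings and not for the table total. It was 15 to 21 when 1 library was left out, and lowest without library 3. There it was 15 of 27, against 50.1% of all genes. It was 11 of 19 when at least 10 normalized counts were required in all 9 libraries, which tests fewer genes (54.6% of all genes), and 8 of 27 without libraries 3 and 4 (20.8%). The chi-square count was 28 and 29 of 29 under the 2 scalings. It was 26 of 27 without library 3 and without library 4, and 28 or 29 of 29 without any 1 other library. Without both libraries 3 and 4 it was 22 of 27, and under the stricter filter 19 of 19. In the main setting 98.7% of all genes were called, and the shares in the other settings are not given here. Libraries 3 and 4 lay above all others for 17 and 13 carriers under the table total and median-of-ratios scalings, and below for 7 and 9. Over all genes the shares were 55.6% and 38.6% above and 23.9% and 41.6% below. Of 435 single-gene ranges recomputed, 91 moved by over 1.5 times. Leaving out 1 library did so for 13 genes, and leaving out libraries 3 and 4 for 25. Depth limits 11 of the 30 carriers, which had at most 10 reads in some library.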

Other observations

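For Slc35d3 and Slc38a5, libraries 8 and 9 lay between libraries 3 and 4 and libraries 1, 2, 5, 6 and 7. This grouping was drawn after the values were seen, and its share over all genes is not given here. Slc35d3 was at 9.44 and 19.5 normalized counts in libraries 3 and 4, at 329 and 356 in libraries 8 and 9, and between 979 and 2231 in libraries 1, 2, 5, 6 and 7. Slc38a5 was at 1.18 and 1.14, at 18.9 and 48.5, and between 156 and 557 in the same libraries. For Slc1a5, libraries 8 and 9 (8118 and 7764) lay within the values of libraries 1, 2, 5, 6 and 7 (7036 to 10344).

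Among the 16 genes of the part that were highest in libraries 3 and 4, Slc9a3r2 included, library 8 held the next value for 14. This compares with 51.6% of the 1193 genes of the table with the same 2 libraries on top. Among the 9 that were lowest there, library 8 held the next lowest value for 5, against 58.8% of 954 genes. Library 8 was singled out after the values were seen, and these counts are for the deposited scaling only. Library 2 was the lowest for 5 carriers and library 3 for 8, and library 3 was the highest for 15. Shares of all genes for single libraries are not given here. Libraries 3 and 4 both lay above all 7 others for 51.0% of all genes and below for 40.8%. The summed level of the 30 carriers ranged from 17226.5 in library 4 to 43151 in library 6. Without Slc14a1 it ranged from 11974 to 16975, and without Slc14a1 and Slc1a5 from 4585 to 13838.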
